A study of Sus scrofa with 16 samples.

Results

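Hemoglobin and erythroid genes were followed in the left hippocampus of preterm pigs, a bulk tissue whose RNA holds that of neurons, glia, vessels and any blood left in them. The list held 8 symbols, HBB, HBM, HBZ, ALAS2, SLC4A1, AHSP, SLC25A37 and GYPC, chosen by name. Of these, 5 were matched to an entry of the expression table, out of 22815 distinct entries, and 3 of them (HBB, HBM and ALAS2) were among the 13590 entries that averaged at least 0.5 FPKM and were tested. AHSP, SLC25A37 and GYPC were not matched to any entry and were not analysed here. HBB and ALAS2 are genes that the study itself singled out in these pigs, so their values are not independent evidence of a direction.

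All 16 pigs were Danish landrace x Large White x Duroc crosses, delivered preterm by caesarean section. All were given human donor milk in rising amounts and parenteral nutrition in falling amounts over about a week, with an infusion of sow plasma. The milk was of different types, and which pig received which type was not known here. Necrotizing enterocolitis (NEC), an inflammatory disease of the preterm gut, arose spontaneously, so the groups are diagnoses made at autopsy and not assigned treatments. The 5 No NEC pigs had no visible lesion, the 5 Co-NEC pigs had severe lesions in the colon alone, and the 6 Si-NEC pigs had severe lesions in the small intestine, with or without lesions of the colon. Each RNA sample came from 1 pig. Blood was drawn from the heart before the brain was removed, and the sources used here mention no flushing of the brain vessels. The question for these genes was whether their RNA in the hippocampus differed between the diagnoses, and whether they moved together from pig to pig.

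Hemoglobin is a tetramer of globin chains around heme, and red cells carry it in great excess over any other protein. HBB encodes the beta chain of adult hemoglobin. HBZ encodes the zeta chain, the alpha-like chain of the embryo, and HBM the mu chain, an alpha-like globin of erythroid cells. ALAS2 is the erythroid form of the enzyme that starts heme synthesis, and SLC4A1 is band 3, the anion exchanger of the red cell membrane. AHSP is a chaperone of free alpha chains, SLC25A37 carries iron into the mitochondria of erythroid cells, and GYPC is a glycophorin that anchors the red cell skeleton. Immature red cells keep some of these transcripts, and low globin expression in neurons has also been described. In bulk tissue fewer cells of a type and less RNA per cell cannot be told apart.

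By sequencing, the study reported HBB as lower in both NEC groups than in No NEC, and ALAS2 as lower in Si-NEC. It also measured both genes by qPCR in a larger cohort and reported both as lower in Si-NEC. The comparisons below use another test than the study's and only the sequenced pigs. The study's qPCR primers are printed here because they define which transcripts those assays read. They are given as listed, 5′ to 3′, first and second primer of each pair. No genome of the files' build was given, so their positions were not looked up.
HBB first primer: ctcctgggcaacgtgatagt
HBB second primer: cagccaccaccttctgaaa
ALAS2 first primer: ctagccacatcatccccatt
ALAS2 second primer: ccatgcttggagagaaggag

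The tissue carried markers of excitatory neurons, astrocytes and dentate granule neurons, of which only the last are particular to the hippocampus. SLC17A7, the vesicular glutamate transporter of excitatory neurons, averaged 582 FPKM, the astrocyte gene GFAP 603 FPKM, and PROX1, a marker of dentate granule neurons, 7.90 FPKM. ALDH1L1, also an astrocyte gene, CSF3R of neutrophils and MYH11 of smooth muscle were listed at 0 in every pig. The FPKM values of a pig summed to 544629 to 864931. The sums of Si-NEC pig 223-15 (823320) and No NEC pig 230-15 (864931) stood apart, since no other pig exceeded 645197. The table holds no read counts, so the depth behind each value is unknown.

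HBB was among the more abundant RNAs of the hippocampus and by far the most abundant member. On the FPKM scale, which is per transcript length, it averaged 231 over the 16 pigs, against 1.99 for HBM, 1.36 for ALAS2, 0.0509 for HBZ and 0.0173 for SLC4A1. Its level differed 57.4-fold between the extreme pigs, and it ranked from place 40 of all tested entries in No NEC pig 550-14 to place 3499 in Si-NEC pig 539-14. On the log2(FPKM + 0.5) scale its SD over pigs was 1.31, larger than that of 98.4% of tested entries, whose median SD was 0.286. The SD was 1.37 for HBM and 0.85 for ALAS2.

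HBB in the No NEC pigs stood at 83.1 FPKM in pig 540-14, 128 in 228-15, 82.3 in 230-15, 272 in 253-15 and 1281 in 550-14. In the Co-NEC pigs it stood at 322 FPKM in 225-15, 180 in 545-14, 83.2 in 552-14, 233 in 255-15 and 71.6 in 231-15. In the Si-NEC pigs the lowest value was 22.3 FPKM, the median 198 and the highest 245. The groups overlapped throughout, and 1 No NEC pig, 550-14, held 69.4% of the summed HBB of its group. No NEC pigs averaged 369 ± 515 FPKM (SD, n = 5), Co-NEC pigs 178 ± 105 FPKM (SD, n = 5) and Si-NEC pigs 159 ± 96.1 FPKM (SD, n = 6). The medians ran the other way, with 128 FPKM in No NEC, 180 in Co-NEC and 198 in Si-NEC.

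ALAS2 in the No NEC pigs was 0.628 FPKM in 540-14, 1.0045 in 228-15, 0.437 in 230-15, 2.05 in 253-15 and 7.49 in 550-14. In the Co-NEC pigs it was 2.204 FPKM in 225-15, 0.954 in 545-14, 0.536 in 552-14, 1.03 in 255-15 and 0.617 in 231-15. In the Si-NEC pigs the lowest value was 0.0490 FPKM, the median 0.877 and the highest 1.25. The pig with the highest HBB was again the highest, and the pig with the lowest HBB, 539-14, again the lowest. The level of ALAS2 was thus close to 1 FPKM in most pigs, where the pseudocount of 0.5 makes a fold change look smaller than it is.

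HBM was above 0 in 11 of the 16 pigs. In the No NEC pigs it was 1.95 FPKM in 540-14, 2.11 in 228-15, 3.23 in 230-15, 0.819 in 253-15 and 9.28 in 550-14. In the Co-NEC pigs it was 4.56 FPKM in 225-15 and 2.44 in 255-15, and it was listed at 0 in 545-14, 552-14 and 231-15. Among Si-NEC pigs, 223-15 and 539-14 were listed at 0, the median was 1.69 FPKM and the highest value 2.15 FPKM. All 5 No NEC pigs therefore had a value, against 2 of 5 with Co-NEC and 4 of 6 with Si-NEC. Whether a listed 0 is a failed estimate or an absence of reads was not tested. Of the 4038 entries averaging over 20 FPKM, 49 were also listed at 0 in at least 1 pig.

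HBZ and SLC4A1 lay at the floor of the table and were not tested across all entries. HBZ was above 0 in 5 pigs, with 0.143 FPKM in 552-14, 0.177 in 255-15 and 0.137 in 231-15 of the Co-NEC pigs, 0.154 in No NEC pig 540-14 and 0.204 in Si-NEC pig 547-14. SLC4A1 was above 0 in 8 pigs, namely 2 of 5 without NEC, 2 of 5 with Co-NEC and 4 of 6 with Si-NEC, and its highest value was 0.0673 FPKM in Si-NEC pig 223-15. No NEC pig 550-14, the highest for HBB, HBM and ALAS2, was listed at 0 for HBZ and had 0.0214 FPKM of SLC4A1. Two-sided exact permutation tests gave p = 0.165 for SLC4A1 in Si-NEC against No NEC and p = 0.119 in Si-NEC against Co-NEC, and p = 0.405 for HBZ in Co-NEC against No NEC. Globin genes of the same kind resemble one another, so reads may be shared between the alpha-like HBM and HBZ. They may also be shared between a member and unnamed copies of its own kind. The split between such genes is uncertain. In the RefSeq annotation of Sscrofa11.1, a later build than that of the files, HBM lies next to HBZ.

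**Figure D1:**
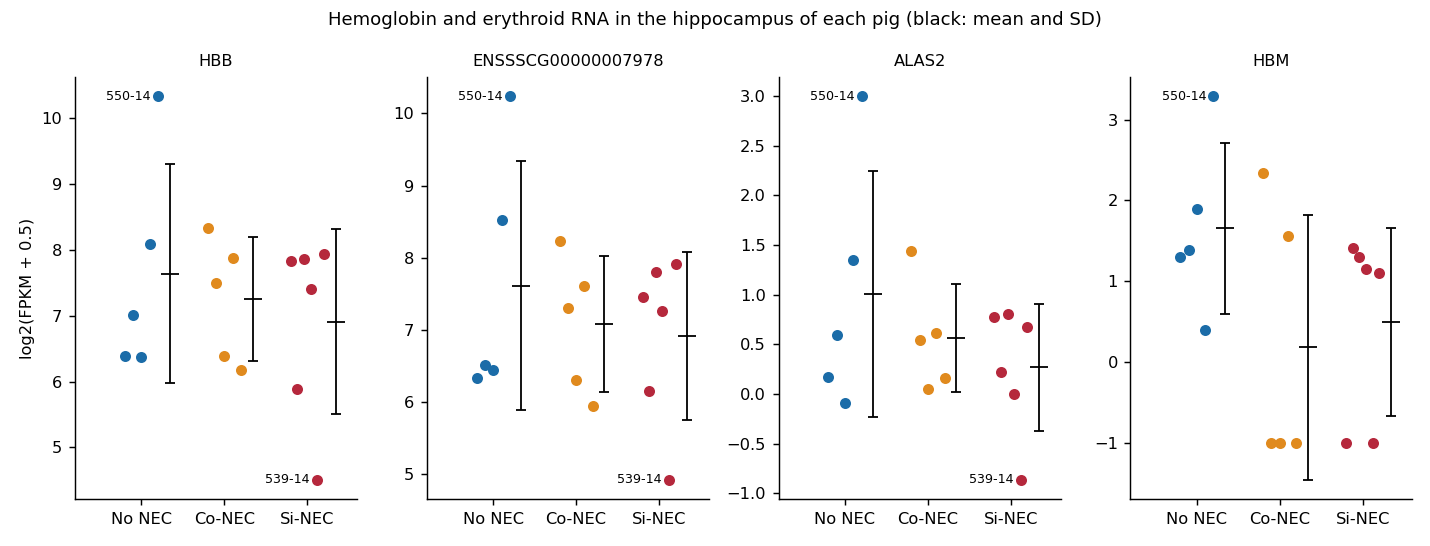
Each point is 1 pig, grouped as No NEC (n = 5), Co-NEC (n = 5) and Si-NEC (n = 6), with log2(FPKM + 0.5) on the vertical axis and the mean and SD of each group in black. No NEC pig 550-14 is the highest in all 4 panels and Si-NEC pig 539-14 the lowest in the first 3; the points of HBM at the bottom are pigs listed at 0.

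Si-NEC pigs were compared with No NEC pigs by limma over all tested entries. None of the 3 tested members passed an adjusted p of 0.2, the threshold of the study, which 0.00736% of all entries passed. None passed an unadjusted p of 0.05 either, against 2.61% of all entries. The log2 fold change was -0.73 for HBB (SE 0.81, limma adjusted p = 1, exact permutation p = 0.468), -0.74 for ALAS2 (SE 0.52, limma adjusted p = 1) and -1.16 for HBM (SE 0.60, limma adjusted p = 1, exact permutation p = 0.154). The median of the 3 was -0.74, beside 0.02 over all tested entries, and 46.2% of all entries lay below 0. Each of these differences was less than 2 times its standard error.

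Co-NEC pigs were compared with No NEC pigs in the same way. None of the 3 members passed, beside 0.00736% of all entries at an adjusted p of 0.2 and 3.44% at an unadjusted p of 0.05. HBB differed by -0.38 (SE 0.74, limma adjusted p = 0.895, exact permutation p = 0.722), ALAS2 by -0.44 (SE 0.53, limma adjusted p = 0.834) and HBM by -1.47 (SE 0.76, limma adjusted p = 0.812, exact permutation p = 0.119). The median was -0.44, beside 0.01 over all entries, of which 48.0% lay below 0. This comparison and the one above share the same 5 No NEC pigs, 550-14 among them.

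Si-NEC against Co-NEC, which does not use the No NEC pigs, gave -0.34 for HBB (SE 0.64, limma adjusted p = 0.950), -0.29 for ALAS2 (SE 0.33, limma adjusted p = 0.910) and 0.31 for HBM (SE 0.74, limma adjusted p = 0.957). None of the 3 passed an adjusted p of 0.2, which 0.0147% of all entries did, nor an unadjusted p of 0.05, which 5.64% did, and 49.9% of all entries lay below 0. Group membership accounted for 5.59% of the variance of HBB over the 16 pigs and 13.6% of that of ALAS2, beside a median of 10.4% over all tested entries. For HBM it accounted for 21.7%. The spread of HBB thus lay almost wholly between pigs of the same diagnosis.

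No NEC pig 550-14 set the size of the differences from No NEC. Without it, HBB in the other 4 No NEC pigs averaged 141 ± 89.5 FPKM (SD, n = 4), and the log2 fold change of HBB was -0.05 in Si-NEC (SE 0.68) and 0.29 in Co-NEC (SE 0.51). ALAS2 came to -0.24 (SE 0.37) and 0.06 (SE 0.35). HBM came to -0.75 (SE 0.56) and -1.06 (SE 0.75), so that it stayed below 0 in both. The lowest pig mattered to the third comparison, since without Si-NEC pig 539-14 the HBB difference between Si-NEC and Co-NEC was 0.14.

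**Figure D2:**
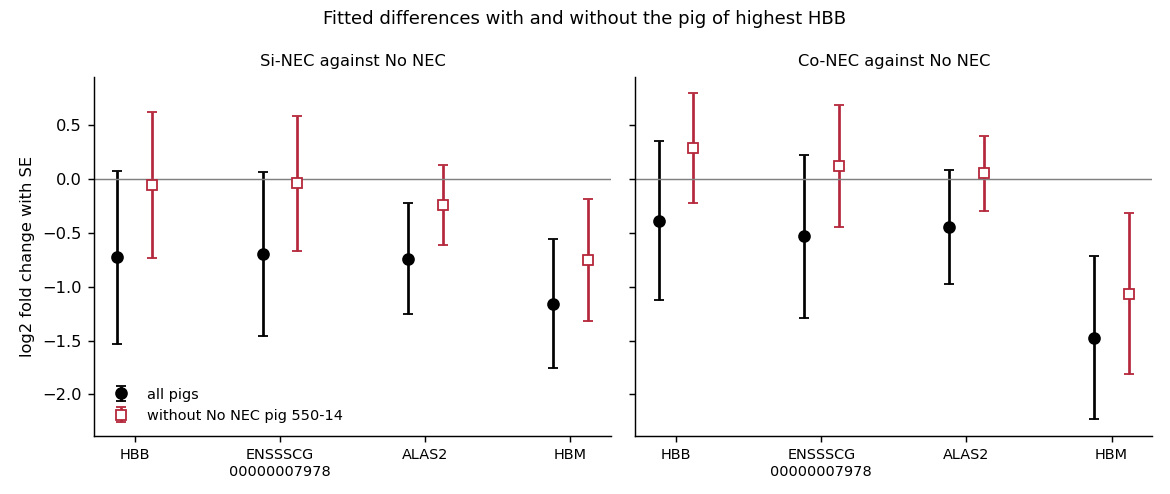
Fitted log2 fold change on log2(FPKM + 0.5) with its standard error as bars, for all pigs (filled) and without No NEC pig 550-14 (open), in Si-NEC (left) and Co-NEC (right) against No NEC. HBB moves from -0.73 to -0.05 in Si-NEC and from -0.38 to 0.29 in Co-NEC, while HBM stays below 0.

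The pigs' labels end in 14 or 15, and what the suffix stands for is not given. The 10 pigs with suffix 15 (3 No NEC, 3 Co-NEC and 4 Si-NEC) gave log2 differences in HBB of 0.11 for Si-NEC and 0.30 for Co-NEC against No NEC. The 6 pigs with suffix 14, 2 of each group and both extreme pigs among them, gave -2.17 and -1.41. For ALAS2 the differences were -0.20 and 0.12 with suffix 15 and -1.62 and -1.29 with suffix 14. The lower means of HBB in the NEC groups were therefore found in the pigs of 1 suffix alone, and the differences within a suffix were not tested. In limma fits none of the members' interactions between sex and diagnosis passed, with a smallest adjusted p of 0.581.

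From pig to pig, ALAS2 moved with HBB. Over the 16 pigs on the log2 scale, Pearson's r was 0.93 (p = 1e-05, the smallest that 100000 permutations give) and Spearman's rho 0.88 (permutation p = 5e-05). Its rho was the second highest of 13589 entries, whose median was -0.04 and whose 99th percentile was 0.485. In a limma regression of every entry on HBB, adjusted over all of them, ALAS2 rose by 0.60 log2 units per log2 unit of HBB (SE 0.07, adjusted p = 0.000388). Only 2 entries, 0.0147% of those tested, passed an adjusted p of 0.05 in that regression.

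The other was ENSSSCG00000007978, an entry with no symbol in the tables used here, which was singled out after its values were seen. In the No NEC pigs it stood at 80.3 FPKM in 540-14, 90.5 in 228-15, 87.0 in 230-15, 368 in 253-15 and 1206 in 550-14. Its range was 61.3 to 300.2 FPKM with Co-NEC and 29.9 to 240.2 FPKM with Si-NEC. It thus matched HBB not only in order but in level, with a ratio to HBB of 0.707 to 1.36 (median 0.944) that had a coefficient of variation of 18.7%. Its rho with HBB was 0.98, its slope 0.94 (SE 0.05, limma adjusted p = 7.3e-09), and its own log2 differences from No NEC were -0.69 in Si-NEC and -0.53 in Co-NEC. HBM carries the neighbouring ID ENSSSCG00000007977, and HBZ carries ENSSSCG00000007975. What ENSSSCG00000007978 encodes was not looked up, and whether it and HBB share reads was not tested.

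The co-variation was also fitted with the diagnoses taken out. With the mean of each group removed, the limma slope of ALAS2 on HBB was 0.58 (SE 0.07, adjusted p = 0.00229) and the same 2 entries passed. In the 6 Si-NEC pigs alone, rho of ALAS2 with HBB was 0.77 (exact permutation p = 0.103), and the groups of 5 pigs were not taken alone. In the 10 pigs with suffix 15, rho of ALAS2 with HBB was 0.82 (permutation p = 0.00576), and in the 6 with suffix 14 it was 0.94 (exact permutation p = 0.0167). It was 0.97 in the 9 males (exact permutation p = 0.000165) and 0.71 in the 7 females (exact permutation p = 0.0881). With the pigs of highest and lowest HBB, 550-14 and 539-14, left out, r was 0.81 (permutation p = 0.00028) and rho 0.82. The whole-table regression lost ALAS2 without those 2 pigs (slope 0.47, SE 0.10, limma adjusted p = 0.999). Without 550-14 alone it was just past the threshold (slope 0.49, SE 0.07, limma adjusted p = 0.0491), while ENSSSCG00000007978 passed in every one of these fits.

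**Figure D3:**
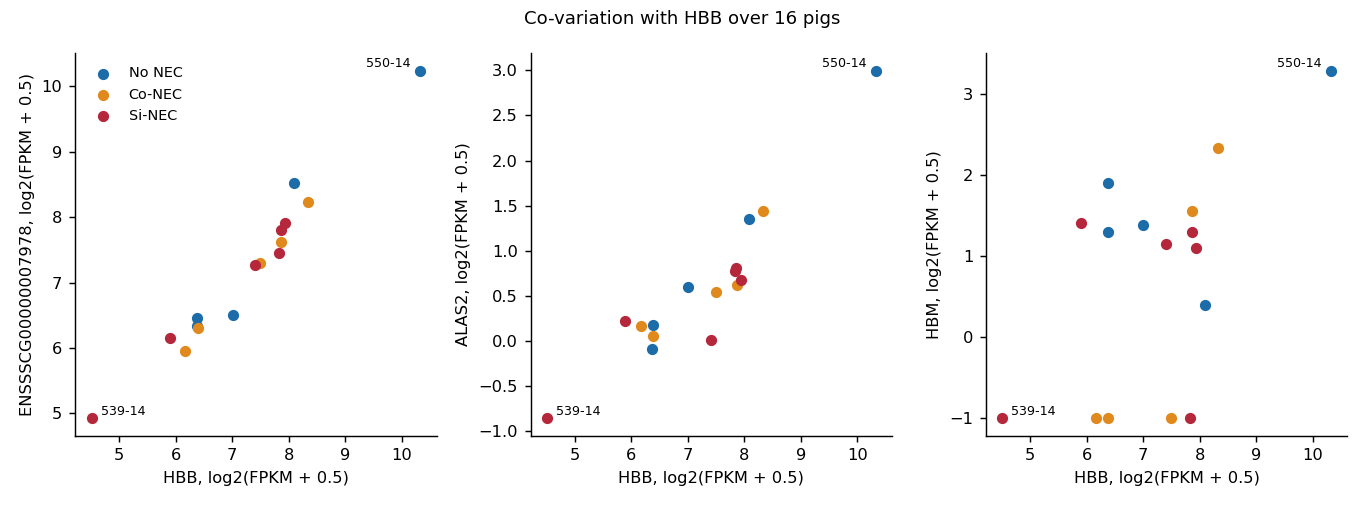
Each point is 1 of 16 pigs, coloured by diagnosis, with HBB on the horizontal axis and ENSSSCG00000007978, ALAS2 or HBM on the vertical axis, all as log2(FPKM + 0.5). The first 2 panels lie along a line from 539-14 to 550-14 (r = 0.98 and 0.93), and in the third 5 pigs lie at the value of a listed 0.

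For HBM, r with HBB was 0.54 (permutation p = 0.0291) and its rho 0.36 (permutation p = 0.177), and it ranked 567 among 13589 entries by rho and 51 by r. With 550-14 and 539-14 left out, r was 0.15, so the relation rests on those pigs. In the limma regression its slope was 0.57 (SE 0.21, adjusted p = 1). SLC4A1, listed at 0 in 8 pigs, had a rho of 0.36 (permutation p = 0.172), and HBZ, listed at 0 in 11, had a rho of -0.08. In all, 4 relations with HBB were computed among the members.

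**Figure D4:**
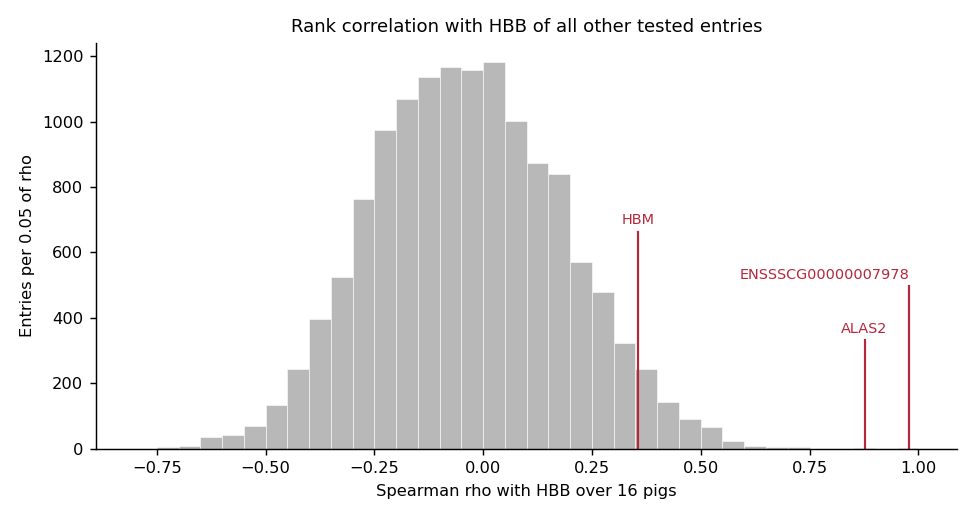
Histogram of Spearman's rho with HBB over 16 pigs for the 13589 other tested entries, counted per 0.05 of rho on the horizontal axis, with red lines at HBM (0.36), ALAS2 (0.88) and ENSSSCG00000007978 (0.98). The last 2 lie beyond the rest, whose highest rho was 0.744, and HBM lies inside the distribution.

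The ratio of ALAS2 to HBB had a 5.10-fold range over the pigs, against 57.4-fold for HBB. Per 1000 FPKM of HBB there were 2.198 FPKM of ALAS2 in Si-NEC pig 539-14 and 11.2 in Si-NEC pig 224-15, with a median of 5.61 over the 16 pigs. The medians were 7.54 in No NEC, 6.44 in Co-NEC and 4.88 in Si-NEC, and pig 550-14 had 5.85, near the middle. Of 6 two-sided exact permutation tests on the ratios of ALAS2 and of ENSSSCG00000007978 to HBB between the groups, the smallest p was 0.199, for ALAS2 in Si-NEC against No NEC.

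No other gene of the heme pathway passed in the regression on HBB. Of 13 genes of heme synthesis and transport listed, 10 were matched and all 10 were tested, with rho between -0.47 and 0.08 (median -0.10). ALAS1, the form of the first enzyme that all cells use, stood at 24.6 to 42.5 FPKM over the 16 pigs and had a rho of 0.03. PPOX and UROS, further enzymes of the pathway, had the highest values (0.08 and 0.06). The lowest were those of SLC25A38, a mitochondrial glycine carrier (-0.47), and CPOX (-0.27). None of the 10 passed in any comparison of the groups, and their median log2 difference was -0.06 in Si-NEC and -0.07 in Co-NEC against No NEC. ALAS2, the erythroid form of that enzyme, differed 153-fold between the extreme pigs. That figure rests on a value near 0, 0.0490 FPKM in pig 539-14, while the next lowest pig, 230-15, had 0.437 FPKM.

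Genes of the red cell membrane were matched for 10 of 19 symbols, and 6 were tested. ADD2, ANK1 and SPTB, of the spectrin skeleton that neurons also use, had rho of 0.16, 0.12 and 0.04, and EPB42 and ERMAP had -0.27 and -0.26. EPB42 has 2 entries that differ in their values, the tested one, averaging 4.36 FPKM, and another averaging 0.0282 FPKM. KEL and RHAG, which mark red cells more narrowly, stayed at or below 0.110 FPKM in every pig, and RHCE was listed at 0 in all. None of the 6 passed in any comparison.

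Erythroid regulators were matched for 9 of 13 symbols. LMO2, a cofactor of the erythroid and endothelial GATA complexes, had the highest rho of the tested ones, 0.59, and was highest in pig 550-14 with 11.8 FPKM, but its range over pigs was only 6.53 to 11.8 FPKM. LDB1, its partner, had -0.15, and BCL11A, the repressor of fetal globin that neurons also express, had -0.36. Below the minimum mean, KLF1 reached 0.169 FPKM at most and GATA1 was above 0 in 1 pig, with 0.0642 FPKM. MYB (0.260 to 0.698 FPKM) and EPOR, the erythropoietin receptor (0.195 to 0.887 FPKM), were above 0 in every pig. None of the 3 tested regulators passed in any comparison.

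Of 17 genes of red cell enzymes and maturation, 11 were matched and 10 were tested. TFRC, the transferrin receptor, has 2 entries that differ in their values, with rho of 0.41 and 0.12, and FAM210B had 0.15. FBXO7 and BLVRB had the lowest, -0.29 in both. The first TFRC entry differed between Si-NEC and No NEC by -0.55 on the log2 scale (SE 0.22, limma adjusted p = 1), and none of the list passed after adjustment. Of the other globins listed, NGB, the globin of neurons, was the one matched, with 3.34 to 7.03 FPKM over the pigs and a rho of 0.01.

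Of the platelet markers, 3 symbols were matched and only GP1BB was tested. It has 2 entries, averaging 210 and 4.67 FPKM, with rho of -0.05 and 0.06. Few neutrophil and lymphocyte markers reached the mean that the regression required, so they are given as summed levels. These few were 1 of the 5 neutrophil markers matched (S100A8) and 0 of the 5 lymphocyte markers. The 4 endothelial markers matched were all tested and none passed. The summed level of the 5 neutrophil markers matched was 1.13 to 3.60 FPKM in No NEC, 1.11 to 2.93 in Co-NEC and 2.73 to 26.3 in Si-NEC, and its rho with HBB was -0.36. That sum is mostly S100A8, which averaged 1.74 FPKM in No NEC and 12.5 FPKM in Si-NEC. MPO averaged 0.378 and 0.169 FPKM in the same groups, LTF and ELANE averaged 0.286 and 0.210 FPKM over all pigs, and CSF3R was at 0 in all. In pig 550-14 the sum was 1.13 FPKM, 15th of the 16 pigs, of which S100A8 made up 0.764 FPKM. MPO in that pig stood at 0.304 FPKM, above its mean of 0.224 FPKM over all pigs. LTF (0.0359 FPKM) and ELANE (0.0259 FPKM) lay below theirs. The summed level of the 5 lymphocyte markers matched was 0.577 to 2.29 FPKM over all pigs (rho 0.14), and that of the 4 endothelial markers 11.4 to 34.9 FPKM (rho 0.00). Pig 550-14 was 3rd for lymphocyte and 10th for endothelial markers. How much blood each hippocampus held was not measured, and the part of blood in the HBB values was not tested.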

How the data were processed

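Hippocampal RNA of 16 pigs was sequenced, and groups and sexes were taken from the sample labels. The submitters' notes name TopHat2 2.1.1, Cufflinks 2.2.1 and the Sscrofa10.2 build. FPKM values of each gene in each pig were deposited by the authors, who state no further scaling between pigs. No counts or depths came with them. Here 1779 identical rows were dropped, and those averaging 0.5 FPKM or more were tested, as log2(FPKM + 0.5). Pairwise fits were made with limma 3.58.1 in R 4.3.3 (eBayes with a trend, no covariate), with Benjamini-Hochberg adjustment over all entries and thresholds of 0.2 and, for the regression on HBB, 0.05. Single genes were compared by two-sided exact permutation tests, and correlations by 100000 permutations, or exactly below 10 pigs. Python 3.11.15, numpy 2.4.6, pandas 2.3.3, scipy 1.17.1 and matplotlib 3.10.9 were used. The fits were tested on simulated data.

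Members and lists were chosen with earlier results of these data known. Named are the members, of each list the up to 3 genes of highest and 2 of lowest rho with HBB, and the 10 symbols most like HBB. Names came from a table of Ensembl IDs and symbols. The values of 2 listed genes are not reported here. ENSSSCG00000007978, markers, and a few genes below the minimum mean were named after their values were seen. A planned motif search in promoters was not run, since no promoter sequences were given. P-values measure the spread between pigs, whose litters the labels do not give. Alternatives were pseudocounts of 0.1 and 1, other filters, rescaling by the median of ratios, 1 fit of all groups, covariates, other eBayes settings, leaving out each pig and, added after seeing the data, leaving out pigs 223-15 and 230-15 and the regression on HBB.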

Additional observations from a re-analysis of the deposited data

Results flagged for a closer look

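In each group, the gap of a pig to the nearest other was taken as a share of the group's FPKM range. A pig was marked above the 95% critical value of Dixon's test (0.710 for 5 pigs, 0.625 for 6). Chance gives such a mark in about 1 in 20 groups of normally distributed values. FPKM values were not shown to be so distributed, and the rule was not tried on the log2 scale. Of 18 groups of values, 6 were marked, a count that cannot be set against that rate. In No NEC pig 550-14, HBB stood at 1281 FPKM against 272 for the next pig, HBM at 9.28 against 3.23, ALAS2 at 7.49 against 2.05 and ENSSSCG00000007978 at 1206 against 368. HBB, ALAS2 and ENSSSCG00000007978 move together, so these are not separate signs. HBZ was marked in No NEC pig 540-14 (0.154 FPKM) and in Si-NEC pig 547-14 (0.204 FPKM). In each case every other pig of the group was listed at 0, where any value above 0 is marked.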

How the results depend on the processing

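No paired analysis was possible, because the groups are different pigs and the labels do not give their litters. The labels give no replicate numbers either, and those used here only name pigs in accession order. The suffix of the pig labels, 14 or 15, occurs in all groups and was fitted as a covariate. No member passed in any of the 3 comparisons under any alternative run. Leaving out each pig in turn moved the log2 difference of HBB between -1.04 and -0.05 in Si-NEC and between -0.70 and 0.29 in Co-NEC against No NEC, and between -0.61 and 0.14 in Si-NEC against Co-NEC. The directions that turned were those of HBB (0.29) and ALAS2 (0.0559) in Co-NEC against No NEC without No NEC pig 550-14, and HBB in Si-NEC against Co-NEC (0.14) without Si-NEC pig 539-14. The other alternatives kept the sign of HBB, ALAS2 and HBM in each comparison. HBB ranged from -1.23 to -0.72 in Si-NEC and from -1.11 to -0.38 in Co-NEC against No NEC. ALAS2 ranged from -1.15 to -0.59 and from -0.96 to -0.39. HBM depended on the pseudocount, with -1.86 in Si-NEC and -2.68 in Co-NEC against No NEC at 0.1 FPKM, and leaving out each pig moved the latter between -2.01 and -1.06. HBM in Si-NEC against Co-NEC lay between 0.02 and 0.96 over all alternatives. Of the 4 relations with HBB, with p-values of rho corrected over those 4, 1 passed an adjusted p of 0.05 (ALAS2). By rho 1 also passed with any single pig left out. By Pearson's r, HBM did not pass with all pigs (permutation adjusted p = 0.0582) but did under some alternatives. Its permutation adjusted p by r was 0.0434 with a pseudocount of 1 and 0.0294 without No NEC pig 230-15. Without No NEC pig 550-14 it was 0.277. By rho with group means removed 3 passed (ALAS2, HBM and SLC4A1), but there pigs listed at 0 no longer tie between groups. By r, HBM and SLC4A1 did not pass there (permutation adjusted p = 0.0535 for each). By rho 0 passed in the 6 pigs with suffix 14, in the 7 females or in the 6 Si-NEC pigs, where few pigs were left. By r, ALAS2 passed in the pigs with suffix 14 (exact permutation adjusted p = 0.0111). The rho of HBM turned to -0.0541 in females, and that of HBZ to 0.0304 with suffix 14, 0.0891 in females and 0.39 in Si-NEC pigs. Without pigs 223-15 and 230-15 the rho of ALAS2 was 0.87. The precision of values near 0, HBZ and SLC4A1 above all, cannot be judged without counts.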

Other observations

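The 10 symbols outside the erythroid list whose order over the 16 pigs was most like that of HBB were SMDT1 (rho 0.713), ADAMTS19 (0.703), TMPRSS3 (0.694), NKG7 (0.694), MEX3A (0.691), FGD3 (0.653), MKX (0.638), PRICKLE3 (0.632), LETM1 (0.618) and UBE2T (0.609). None passed in the limma regression on HBB, where each had an adjusted p of 1. SMDT1, a subunit of the mitochondrial calcium uniporter, had an r of only 0.37 on the log2 scale and was listed at 0 in some pigs. NKG7 is a granule gene of cytotoxic lymphocytes and averaged 1.78 FPKM.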
